A study of Nothobranchius furzeri with 16 samples.

Results

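The fasting response of young adipose tissue was described from 8 of the 16 fish of the series, 4 young fasted and 4 young refed turquoise killifish (Nothobranchius furzeri, an annual fish kept in the laboratory for its short life). The members were chosen by the names of the columns, young fish only, and all 18606 fish genes of the table were used. All fish were males of the wild-type laboratory strain GRZ-AD, housed singly, and the deposited description gives an age of 7 weeks for these 8 fish. Fasted fish had no food for 72 h. Refed fish went through a fast of the same length and were then fed for 24 h, so the comparison sets fasting against recent refeeding, with no group that had been fed throughout. The other 8 fish, fasted or refed at 18 weeks, are used only where their values bear on a gene of the young fish. Each fish is 1 library from about 1 μg of total RNA after removal of ribosomal RNA. The values are a normalized signal per gene, called units here, and an effect is the mean log2(value + 1) of fasted minus that of refed fish.

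Adipose tissue stores fat after a meal and releases fatty acids when food is absent, and in vertebrates this switch changes the amounts of many transcripts of lipid metabolism. TFEB is a transcription factor known for its control of lysosomal and autophagy genes under nutrient shortage. SMAD proteins carry signals of the TGFβ family from receptors at the cell surface to the nucleus.

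The table holds gene identifiers without symbols, and 0 of them matched the reference table of killifish genes. Adipose markers, markers of other cell types and pathway lists were therefore not analysed here, and the labelled tissue was not checked against its defining genes. In bulk tissue, fewer cells of a type and less RNA per cell cannot be told apart. Values of all fish genes summed to 24.5, 28.0, 27.5 and 28.3 M units in fasted fish and 26.6, 26.4, 21.0 and 23.2 M units in refed fish, and 11 to 32 genes were at 0 in fasted fish and 15 to 35 in refed fish. These sums are not read numbers. The paper gives the depth per sample only as an approximate value, and the depth of each fish is not known.

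One library stood apart. Fasted replicate 4 had 39 genes at 10 or more times the highest value of the other 7 young fish, against 2 such genes in fasted replicate 1 and 0 in each of the other 6 fish. The 39 genes held 0.993% of the total in fasted replicate 4, and between 0.0134% and 0.0197% in the other 7 young fish. The largest of them stood at 127441 units in fasted replicate 4, against 378, 352 and 380 units in the other fasted fish and 256, 312, 316 and 319 units in refed fish. In fasted replicate 4, all 39 were also above every old fish, and 4 of the 39 were called as different between the groups by limma, against 53.1% of all genes. The 39 were chosen for 1 fish far above its own group, which makes calls few, so nothing is read from this count. The first principal component of the 8 fish, with 58.9% of the variance, placed the fasted fish between -51.4 and -47.8 and the refed fish between 40.7 and 60.2. The second, with 12.7%, placed fasted replicate 4 at 55.4 and the other 7 fish between -26.4 and 5.31. Without fasted replicate 4, 4698 genes were called higher and 4718 lower in fasted fish. Without it, 5372 genes were higher and 4863 lower without overlap between the groups. The nearest values of the groups lay more than 1 apart on the log2 scale in 256 genes higher and 618 lower. Leaving out a fish cannot lower counts of these 2 kinds, so nothing is read from them. Without this fish, the share of the 50 most abundant genes differed by 4.71 percentage points (two-sided exact permutation test, p = 0.143).

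A total of 9881 genes differed between fasted and refed young fish on the deposited scale, in nearly equal numbers in each direction. This balance depended on the scale, with 2487 genes higher and 5506 lower when values were scaled to the total of each fish. By limma (Benjamini-Hochberg adjusted p under 0.05), 5051 of 18606 genes were higher in fasted fish (27.1%) and 4830 were lower (26.0%), together 53.1% of the genes. The falls were larger than the rises. The median effect was -0.75 among genes called lower and 0.61 among those called higher, and 0.10 over all genes. Of the genes called, 1553 were lower and 928 were higher by at least 1 on the log2 scale. At 2 or more the counts were 157 lower and 109 higher, and at 3 or more 15 lower and 23 higher, so that the excess of falls did not extend to the largest effects. The central 90% of effects over all genes lay between -1.24 and 1.05, and the 1st and 99th percentiles were -1.95 and 1.77. The SD of the effects over all genes was 0.72 in young fish, against 0.48 for the same contrast in old fish.

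On the deposited scale, the direction of the response changed with expression level. Among the 685 genes with a mean under 10 units, 12.6% were called higher and 2.63% lower in fasted fish. Among the 6285 genes at 10 to 100 units, 24.8% were higher and 16.2% lower. At higher levels the balance tipped to the other side. Of the 9964 genes at 100 to 1000 units, 29.3% were higher and 32.7% lower, and of the 1531 genes at 1000 to 10000 units, 30.5% were higher and 34.3% lower. The median effect per level was 0.29, 0.24, 0.0052 and -0.02 in this order, and 0.03 for the 141 genes at 10000 units or more. Large falls were most frequent at 1000 to 10000 units, where effects of at least 1 were called in 170 genes that were lower (11.1%) and 79 that were higher (5.16%). Under 10 units the same counts were 12 lower and 45 higher.

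**Figure D1:**
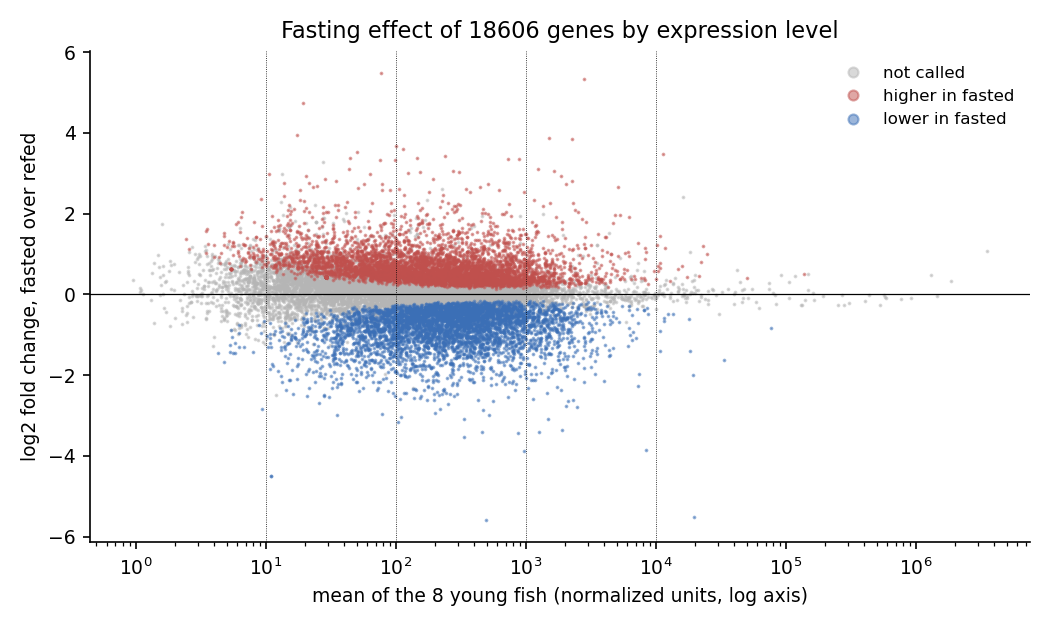
Effect of each of the 18606 genes (y axis, log2 fold change of fasted over refed) against its mean over the 8 young fish (x axis, units, log axis), with genes called higher in fasted fish in red, genes called lower in blue and other genes in grey. Effects of low genes lie mostly above 0, and the genes past 10000 units lie close to 0 apart from a few.

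The most abundant genes were the least often called apart from those under 10 units. Among the 141 genes at 10000 units or more, 19 were higher and 12 lower in fasted fish (22.0% called), against 64.8% called at 1000 to 10000 units and 15.2% under 10 units. The median SD within groups was 0.20 on the log2 scale at 10000 units or more, 0.15 at 1000 to 10000 units and 0.53 under 10 units. With a prior for the spread that does not follow the mean level, 23.4% of the most abundant genes were called. Those with no overlap between the groups numbered 22 higher and 12 lower (24.1% together, against 48.6% of all genes).

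**Figure D2:**
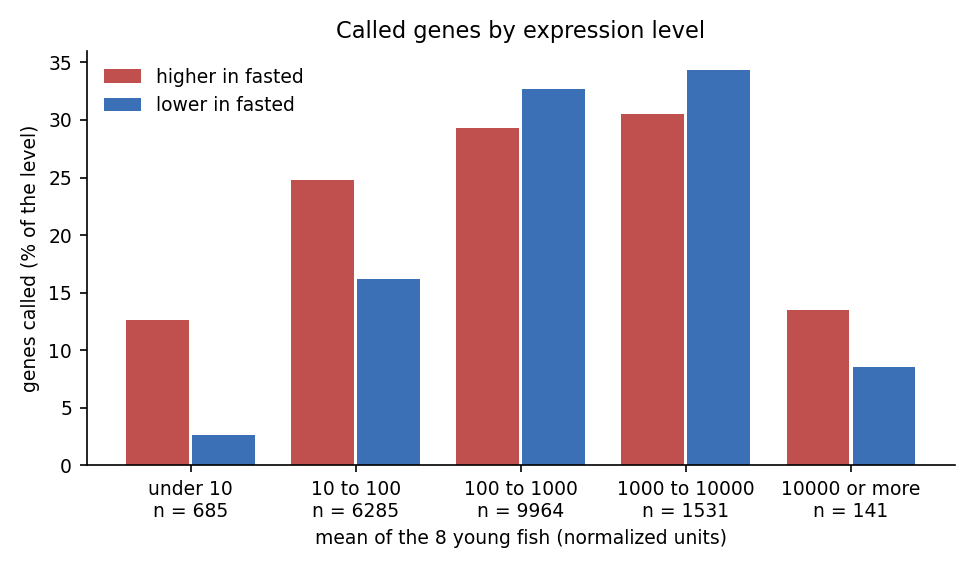
Percent of the genes of each expression level (x axis, mean over the 8 young fish in units, with the number of genes) called higher in fasted fish (red bars) or lower (blue bars) by limma, on the deposited scale. Red exceeds blue under 100 units and at 10000 units or more, and blue exceeds red at 100 to 10000 units.

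The number of genes in each direction depended on the scale. Values scaled to the total of each fish shifted the median effect by -0.16, and gave 2487 genes higher and 5506 lower in fasted fish. Values scaled to the spike-in rows, synthetic RNAs added to each sample, shifted it by -0.71 and gave 517 higher and 11690 lower. All 4830 genes called lower on the deposited scale were also called lower on both of these scales, and 517 of the 5051 genes called higher were called higher on the spike-in scale. Both scales move effects downward, which favours calls of falls, so nothing is read from the kept falls. Scaling to the total without the 50 most abundant genes moved the median effect by 0.03. There 4583 of the 4830 genes (94.9%) were also called lower. The spike-in sum was 1178, 1236, 1033 and 1166 k units in fasted fish and 718, 783, 627 and 672 k units in refed fish, 1.65 times as high in fasted fish (two-sided exact permutation test, p = 0.0286, the smallest that 4 against 4 fish allow). A factor per fish shifts the effects of nearly all genes by the same amount, so the order of the level medians is not tested by these scalings. On the total and spike-in scales the balance of calls by level did not keep its direction. With a factor per fish from the median of gene ratios it did so at every level. There 1356 genes were higher and 1074 lower at 10 to 100 units, and 2578 higher and 3515 lower at 100 to 1000 units. Scaled to the total without the 50 most abundant genes, the balance differed only at 100 to 1000 units (3106 higher and 3085 lower). On the total scale genes called higher outnumbered those called lower only under 10 units (34 and 20 genes), and on the spike-in scale they did so at no level.

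Nearly as many genes separated the groups completely. In 4646 genes (25.0%) the lowest fasted fish was above the highest refed fish, and in 4396 genes (23.6%) the highest fasted fish was below the lowest refed fish, together 48.6% of all genes. Of these genes, 92.4% were also called by limma, whereas 1523 genes called had at least 1 overlapping value. The gap, the distance on the log2 scale between the nearest values of the groups, was more often wide among genes lower in fasted fish. It was over 0.5 in 1677 genes lower and 860 higher, and over 1 in 465 lower (2.50%) and 172 higher (0.924%). Over 2 there were 19 lower and 14 higher, and over 3 there were 5 lower and 3 higher. Leaving out 1 fish at a time gave between 469 and 662 genes lower and between 183 and 256 higher with a gap over 1. A gap cannot shrink when a fish is left out, so these counts could only stay or rise and do not test stability. On the total scale 108 genes were higher by such a gap, and on the spike-in scale 29 were higher and 2065 lower.

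**Figure D3:**
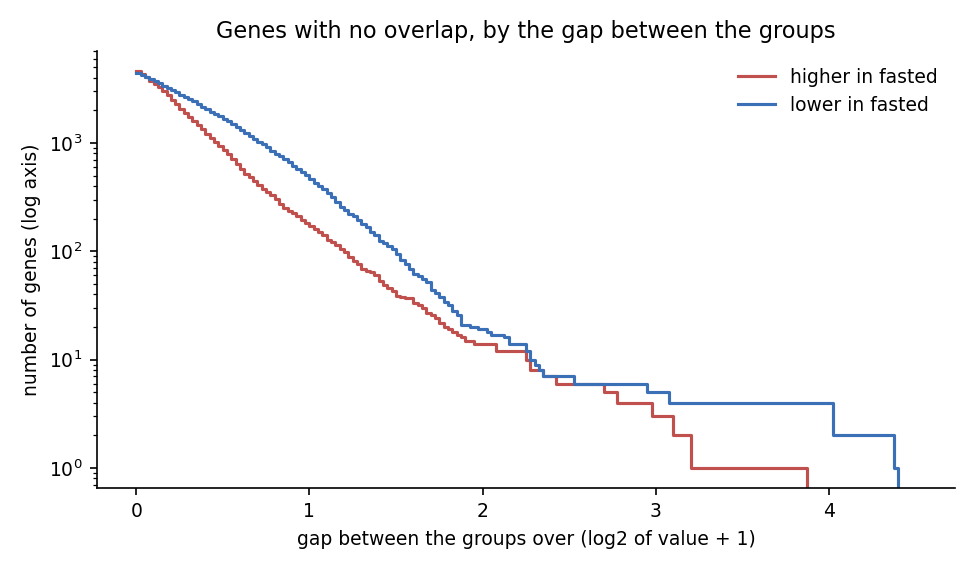
Number of genes (y axis, log axis) whose groups are apart by more than the gap on the x axis (log2 of value + 1), for genes higher in fasted fish (red) and lower in fasted fish (blue). The lines start at 4646 (red) and 4396 genes (blue), and the blue line lies above the red one over most of the range, with 465 against 172 genes at a gap of 1.

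Genes with the widest separation were drawn from the same contrast, so their values are a description. Among genes with a mean of at least 100 units, the largest fall was that of ENSNFUG00015018457. It stood at 18.3, 21.7, 16.4 and 11.4 units in fasted fish, against 478, 502, 1354 and 1560 units in refed fish. The groups were far apart, with the lowest refed fish at 22.0 times the highest fasted fish, although the refed fish themselves fell into a lower and a higher pair. The effect was -5.59 (SE 0.46, limma adjusted p = 1.58e-07), and its rank by abundance was 17193 in fasted fish and 1793 in refed fish.

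The next largest fall took place in an abundant gene. ENSNFUG00015014261 had 673, 936, 695 and 878 units in fasted fish and 19196, 37827, 54811 and 42550 units in refed fish. Every refed fish was at 20.5 or more times the highest fasted fish. The effect was -5.52 (SE 0.37, limma adjusted p = 2.98e-08). By abundance it ranked 2175 in fasted fish and 50 in refed fish, and its share of the total was 0.00293% in fasted and 0.165% in refed fish.

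Under the same conditions, the largest rise was that of ENSNFUG00015019120, with 4642, 10531, 4686 and 1972 units in fasted fish and 29.0, 203, 408 and 67.2 units in refed fish. Values spread widely within both groups, without overlap between them. The effect was 5.33 (SE 1.08, limma adjusted p = 0.000686), and its rank was 256 in fasted and 8912 in refed fish. ENSNFUG00015001104 rose with far less spread, at 2884, 2670, 2470 and 3153 units in fasted fish and 270, 266, 98.7 and 183 units in refed fish. Its effect was 3.87 (SE 0.32, limma adjusted p = 1.76e-07), and its rank was 471 in fasted and 8216 in refed fish. Over the 10 largest effects in each direction, those of genes lower in fasted fish ran from -5.59 to -3.17 and those of genes higher from 3.11 to 5.33.

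**Figure D4:**
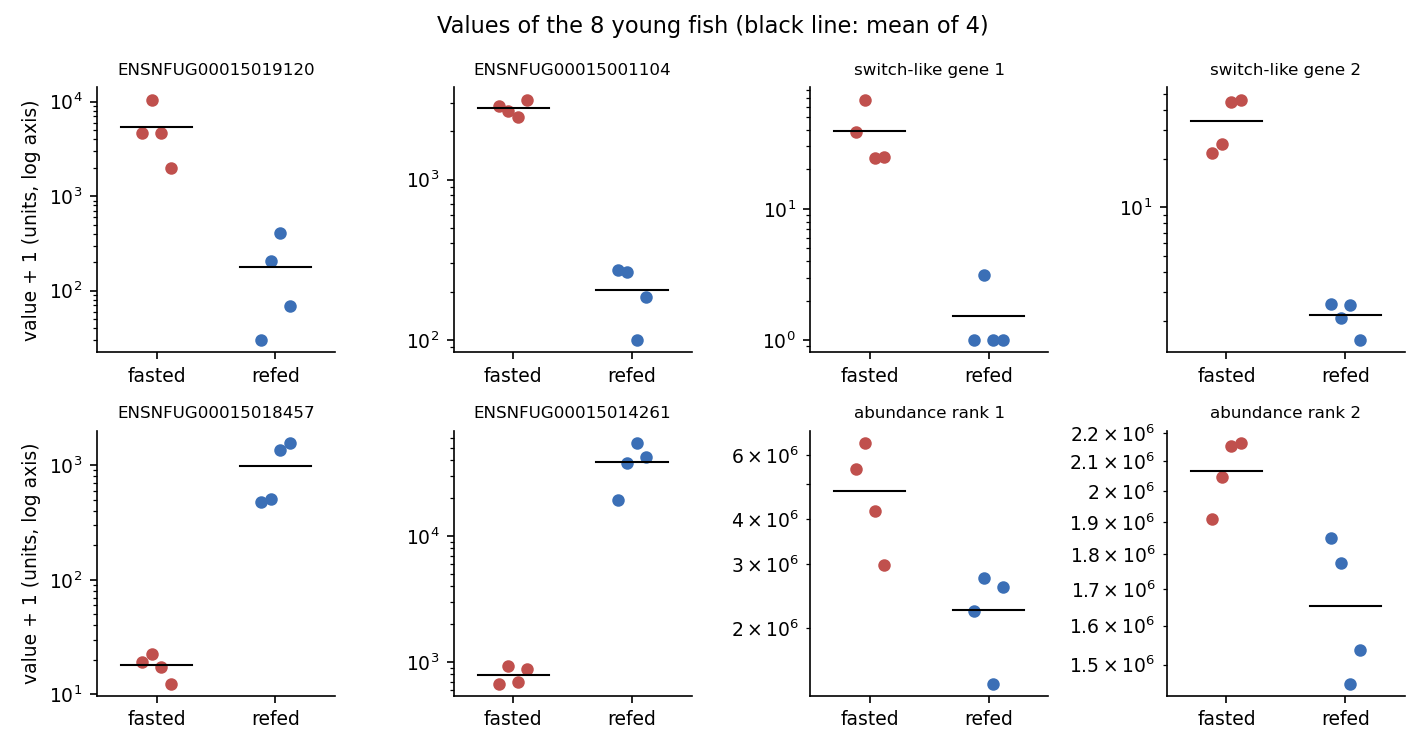
Values of the 4 fasted (red) and 4 refed (blue) young fish for 8 genes (y axes, value + 1 in units, log axes that differ between panels), with a black line at the mean of each group. The groups do not overlap in any of the 8 panels, and the 2 most abundant genes, at the lower right, are the closest to overlap.

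The same direction was found in other animals. All 465 genes lower in young fasted fish with a gap over 1 were also lower on average in old fasted fish, against 52.3% of all genes. In old fish, 427 of the 465 (91.8%) were called lower by limma, against 13.9% of all genes. Without overlap between the old groups, 375 of the 465 were lower (80.6%), against 14.5% of all genes. Of the 172 genes higher in young fasted fish with such a gap, 168 were in the same direction in old fish, against 47.7% of all genes. Of the same 172 genes, 136 (79.1%) were called higher in old fish, against 12.1% of all genes. Without overlap between the old groups, 125 were higher (72.7%), against 12.4% of all genes. A wide gap in young fish favours a small spread. The fit shares 1 estimate of the spread between ages, so the limma counts in old fish may be raised. The counts without overlap use old values alone. The median effect of the genes lower in fasted fish was -1.78 in young and -0.86 in old fish. For the genes higher in fasted fish it was 1.88 in young and 1.03 in old fish. The young values chose these genes, so nothing is read from their smaller size in old fish.

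Switch-like genes, near zero in all fish of one group and clearly present in all fish of the other, were rare. With all 4 low values under 5 units and all 4 high values at 20 units or more, 2 genes were switched on in fasted fish (0.0107%) and 0 were switched off. The first stood at 37.4, 67.2, 23.5 and 23.8 units in fasted fish and was at 0 in refed replicates 1, 3 and 4, with 2.14 units in refed replicate 2. The second stood at 20.7, 23.6, 43.9 and 45.3 units in fasted fish and between 0.521 and 1.55 units in the 4 refed fish. Both are genes of low level even in the fish where they are present. Their effects, 4.74 (limma adjusted p = 4.54e-06) and 3.94 (limma adjusted p = 7.95e-07), depend on the pseudocount of 1 unit.

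More genes came close to the limits. The widest gap among genes higher in fasted fish, 3.85, was that of a gene at 141, 148, 145 and 169 units in fasted fish and 8.81, 1.62, 0 and 4.17 units in refed fish. It missed the limit of 5 units in refed replicate 1 alone. With a limit of 10 units for the low group, 7 genes were switched on and 3 off in fasted fish, and with a limit of 1 unit there were 0 of either kind. Just 1 value pattern was absent from a whole group. A pair of identifiers with identical values in every fish was listed at 0 in all fasted fish and at 15.0, 25.9, 27.4 and 19.8 units in refed fish, and 0 genes were listed at 0 in all refed fish and above 0 in all fasted fish.

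The most abundant gene was described by its share of the total and by its units. It held 22.3%, 23.1%, 15.3% and 10.5% of the total in fasted fish, and 8.34%, 10.4%, 6.68% and 11.2% in refed fish. Fasted replicate 4 lay below refed replicate 4, so that the groups overlapped in share. The share averaged 17.8% ± 5.99 in fasted fish and 9.16% ± 2.04 in refed fish (4 fish each, SD, two-sided exact permutation test, p = 0.0571). In units the same gene had 5474077, 6473289, 4213853 and 2979558 in fasted fish and 2222524, 2751765, 1403041 and 2589811 in refed fish. Here the groups did not overlap, by a narrow margin. The effect was 1.08 (SE 0.55, limma adjusted p = 0.109), and it passed the threshold with a prior that does not follow the mean level (adjusted p = 0.00318) and on the total scale (0.92, adjusted p = 0.0255). By a two-sided exact permutation test of its log2 values, p was 0.0286.

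**Figure D5:**
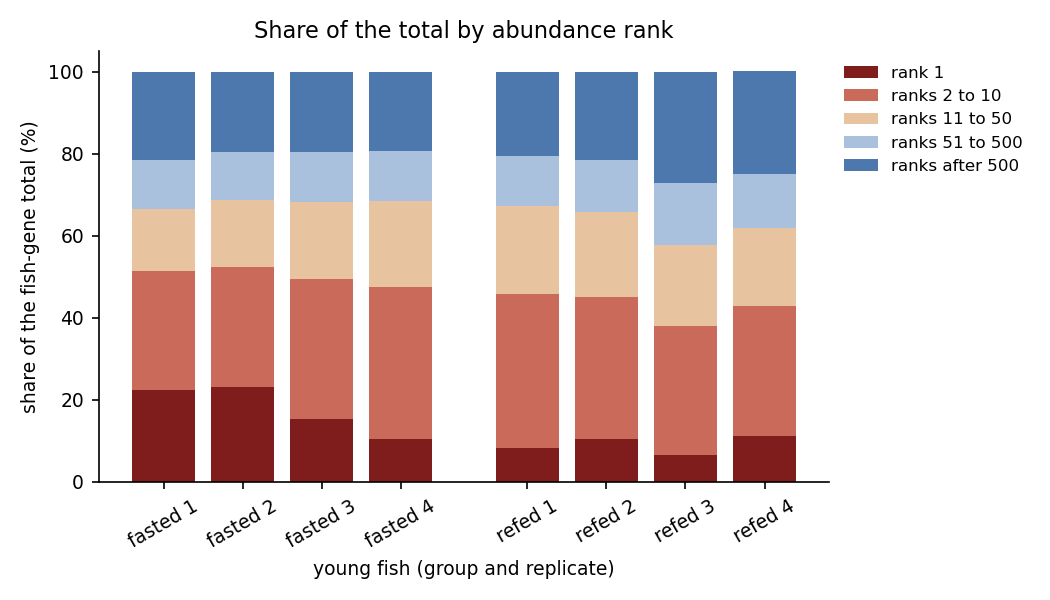
Share of the fish-gene total (y axis, percent) held in each young fish (x axis) by classes of genes ranked by their mean over the 8 young fish, stacked from rank 1 at the bottom to the genes after rank 500 at the top. Rank 1 takes 22.3% and 23.1% in fasted replicates 1 and 2, more than in any other fish, and the genes after rank 500 take most in refed replicate 3.

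The summed shares of ranks 2 to 10 and of ranks 11 to 50 were lower on average in fasted fish, and neither difference passed the test. Ranks 2 to 10 held 32.4% of the total in fasted and 33.8% in refed fish (p = 0.543 by a two-sided exact permutation test), and ranks 11 to 50 held 17.8% in fasted and 20.2% in refed fish (p = 0.171 by the same exact test). Ranks 51 to 500 held 11.9% ± 0.202 in fasted and 13.2% ± 1.35 in refed fish (exact p = 0.0857), and the genes after rank 500 held 19.4% to 21.5% in fasted and 20.7% to 27.2% in refed fish (exact p = 0.0571). The 50 most abundant genes together held 66.7%, 68.7%, 68.3% and 68.5% in fasted fish and 67.3%, 65.9%, 57.7% and 61.7% in refed fish. Only refed replicate 1 overlapped the fasted fish. The difference was 4.86 percentage points (two-sided exact permutation test, p = 0.0571, adjusted p = 0.114 over 6 shares), and 1.45 percentage points (exact p = 0.543) with the most abundant gene left out of both the genes and the total.

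Measured over all genes, the total was concentrated in fewer of them in fasted fish. Between 9 and 12 genes held 50% of the total in fasted fish, with 9, 9, 11 and 12 genes, against 13, 13, 24 and 16 genes in refed fish. The effective number of genes, the exponential of the Shannon entropy of the shares, was 207, 182, 221 and 235 in fasted fish and 269, 286, 491 and 365 in refed fish. All fasted fish were below all refed fish, and refed replicate 3 was the highest of the 8. The effective number averaged 211 ± 22.6 in fasted fish and 353 ± 101 in refed fish (4 fish each, SD, two-sided exact permutation test, p = 0.0286, adjusted p = 0.0429 over 9 measures). Several of the 9 measures describe the same property, so the adjusted p is not that of 9 separate questions. The effective number was added after the data were seen, and the planned share of the 50 most abundant genes did not pass (exact p = 0.0571). Without the most abundant gene the difference in effective number fell to -59.8 (exact p = 0.400), against -142 with it, and leaving out refed replicate 3 gave -95.5 (exact p = 0.0286). Leaving out any 1 fasted fish gave differences from -149 to -132, each with an exact p of 0.0857. The groups still did not overlap. With unequal groups, some splits with the highest refed fish in the smaller group gave differences as large. This p therefore does not test stability.

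Between the group means, gains were concentrated in 1 gene and losses were spread over many. That gene, the most abundant, was not called by limma (adjusted p = 0.109), and its share overlapped between the groups. In units, 10411 genes were higher on average in fasted fish, by 5.08 M units in all, and the most abundant gene made up 50.1% of this. The other 8195 genes were lower by 2.29 M units in all, of which no gene made up more than 4.10%, and 149 genes were needed to reach 50% of the loss. The net difference was 2.79 M units, and the most abundant gene alone made up 91.0% of it. The totals themselves overlapped between the groups, and their difference did not pass the test (two-sided exact permutation test, p = 0.171). Totals without that gene averaged 22.3 M units in fasted and 22.1 M units in refed fish (p = 0.857 by a two-sided exact permutation test). In shares, the same gene gained 8.66 percentage points, 57.5% of all gains, and the largest single loss was 0.727 percentage points, in the gene of rank 3. Shares add up to a fixed whole, so a gain of 1 gene lowers the shares of others.

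The makeup of the top of the list was nearly the same in both groups. The 10 most abundant genes of fasted fish were also the 10 most abundant of refed fish, and the lists of 50 shared 48 genes. Lists of 100 shared 90 genes, and those of 500 shared 390. A gene could enter the fasted list through 1 fish. One of the 39 genes of fasted replicate 4 ranked 257 by the fasted mean and 16437 by the refed mean, with 18.8, 3.84, 0 and 21717 units in fasted fish and 9.32, 20.5, 35.4 and 17.1 units in refed fish.

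Within groups, the abundant genes varied together from fish to fish. Of the 28 genes at ranks 3 to 30, 24 were highest in fasted replicate 4 among the fasted fish, and 26 were lowest in fasted replicate 1. Among the refed fish, 21 were highest in refed replicate 1 and 23 lowest in refed replicate 3. Over all 18606 genes, fasted replicate 4 was the highest fasted fish in 34.3% and refed replicate 1 the highest refed fish in 23.5%. Fasted replicate 1 was the lowest fasted fish in 25.8% of all genes, and refed replicate 3 the lowest refed fish in 24.8%. Effects of the 28 genes ran from -0.28 to 0.51, with 1 called higher and 0 called lower by limma, against 27.1% higher and 26.0% lower over all genes, and 2 of them separated the groups completely, against 48.6% of all genes.

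The gene of rank 2 differed less between the groups than the gene of rank 1. It stood at 1907205, 2045399, 2152917 and 2164424 units in fasted fish and 1848368, 1773875, 1453597 and 1537237 units in refed fish. Its share was 7.64% ± 0.235 in fasted and 6.80% ± 0.149 in refed fish, without overlap (4 fish each, SD, two-sided exact permutation test, p = 0.0286). The effect in units was 0.33 (limma adjusted p = 0.450), and 0.33 with adjusted p = 0.0126 when the prior for the spread does not follow the mean level. On the spike-in scale its direction turned, at -0.39 (limma adjusted p = 0.218).

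Among the 18606 effects, those of the study's 4 genes were moderate to high. The effect of smad3b (ENSNFUG00015007897), a receptor-activated SMAD, was 1.27 and lay at the 97.0th percentile of all genes. That of smad4 (ENSNFUG00015017545), the common partner of receptor-activated SMADs, was 0.79 (89.7th percentile), and those of smad2 (ENSNFUG00015023992) and tfeb (ENSNFUG00015019917) were both 0.53 (79.6th percentile). All 4 passed the threshold by limma on the deposited scale, beside 27.1% of all genes, but 3 of them lost the call on another scale. The groups overlapped for tfeb alone, with fasted replicate 4 at 176 units and refed replicate 2 at 201 units. Its limma adjusted p was 0.0226, against 6.75e-05 for smad2. On the spike-in scale tfeb and smad2 were at -0.19 (limma adjusted p = 0.355 and 0.0953) and smad4 was at 0.07 (adjusted p = 0.626), and on the total scale tfeb was at 0.37 (adjusted p = 0.124).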

How the data were processed

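RNA of adipose tissue was extracted from all fish at the same time. After removal of rRNA and tRNA reads, the authors ran kallisto 0.45.0 for pseudo-alignment and DESeq2 1.24.0 for their own comparisons. Each cell of the deposited table is a normalized signal of a gene in a fish, which is never negative and not whole. Its scaling is not given in the sources. It holds no read numbers, and the paper gives the depth per sample only as an approximate value. The depth of each fish is therefore not known, and no counting interval is given.

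Columns were matched to fish by the names in their titles, and 0 columns stayed unmatched. The 74 spike-in rows were left out of totals and tests, and those with a mean of at least 100 units (42 rows) served for one alternative scale. The design named a test for read numbers and another for normalized values, which it expected, and the latter was used. Log2(value + 1) of 18606 genes was fitted with limma 3.58.1 (R 4.3.3, eBayes with a trend on the mean level) in 1 fit of the 16 fish in 4 groups, which share 1 estimate of the spread. Calls were made at an adjusted p under 0.05 (Benjamini-Hochberg, over all genes). The pseudocount understates effects of low genes. The fit was also run on simulated data with independent noise and few changed genes. That setting differs from these data, so nothing is read from it. Measures per fish were compared by two-sided exact permutation tests in Python 3.11.15 (numpy 2.4.6, pandas 2.3.3, scipy 1.17.1), and plots were drawn with matplotlib 3.10.9. Fish of a group were separate animals.

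Named genes were the 4 genes of the study, found by matching rows to published z-scores of the young fish, and the 2 largest rises and 2 largest falls among genes called, without overlap and with a mean of at least 100 units. Their match to the z-scores follows from this choice. Other genes are given by rank alone, as symbols were lacking, and lists by symbol could not be applied. The 39 genes of fasted replicate 4 and the genes with the widest gaps were singled out after their values were seen. In 32 sets, 268 rows had identical values in all fish. Genes, limits and tests were chosen with earlier results of these data known. Alternatives were other scalings, pseudocounts of 0.1 and 5, a mean of at least 10 units, the 8 young fish alone, the replicate number as a block, merged identical rows, an adjusted p under 0.01, other limits for switch-like genes, other numbers of abundant genes, and each young fish left out. Counts of gaps over 1, the effective number of genes, a high limit of 10 units for switch-like genes and the prior without a trend were added after seeing the data.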

Additional observations from a re-analysis of the deposited data

Results flagged for a closer look

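In 5 of 58 groups of 4 fish that were examined, 1 fish lay far from the other 3, as measured by its distance to the nearest fish over the whole range. Chance marks about 1 in 20 such groups. In young refed fish this was the case for smad3b (0.876 of the range), for the first switch-like gene (1.00, refed replicate 2 being the one fish above 0) and for the effective number of genes by the inverse Simpson index (0.897, refed replicate 3 being the highest). In young fasted fish it was the case for the share held by the genes after rank 500 (0.905, fasted replicate 1 being the highest) and for the second principal component (0.842, fasted replicate 4).

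The fasting effect of 3 genes named for their large change differed between ages by limma, as old minus young effect. It differed by -1.59 for ENSNFUG00015001104 (2.27 in old and 3.87 in young fish, adjusted p = 0.0303), by 2.53 for ENSNFUG00015018457 (-3.06 in old and -5.59 in young fish, adjusted p = 0.0193) and by 2.77 for ENSNFUG00015014261 (-2.75 in old and -5.52 in young fish, adjusted p = 0.00452). For ENSNFUG00015019120, named by the same rule, the difference of -1.73 did not pass (3.60 in old and 5.33 in young fish, limma adjusted p = 0.452). All of these genes were chosen for their size in young fish, which enters the difference, so nothing is read from it. Over all genes 14.1% differed between ages.

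The spike-in rows, which enter no other comparison than the alternative scale, summed to 1.65 times as much in fasted as in refed young fish. They took 4.10% ± 0.410 of the column in fasted fish and 2.81% ± 0.127 in refed fish (4 fish each, SD, two-sided exact permutation test, p = 0.0286).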

How the results depend on the processing

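Of the alternatives, scaling moved the most. Genes called higher in fasted fish numbered 2487 on the total scale and 517 on the spike-in scale, against 5051, and genes called lower 11690 on the spike-in scale, against 4830. Genes higher without overlap numbered 2318 on the total and 403 on the spike-in scale, and genes lower 10562 on the spike-in scale. Gaps over 1 were found in 108 genes higher on the total scale, and in 29 higher and 2065 lower on the spike-in scale. The effects of tfeb (-0.19, limma adjusted p = 0.355), smad2 (-0.19, adjusted p = 0.0953) and the gene of rank 2 (-0.39, adjusted p = 0.218) turned negative on the spike-in scale.

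Switch-like genes numbered 0 higher on the total and spike-in scales, where values of 1 or more fasted fish came below 20 units. The total scale was set to a level shared by young and old fish. Totals were 24.5 to 28.3 M units in young fasted fish and 14.3 to 21.3 M units in old fish. Scaling to the shared level lowers young fasted values against a fixed limit, so nothing is read from the 0 on the total scale. With a low limit of 1 unit there were 0 higher, with 10 units 7 higher and 3 lower, and with a high limit of 10 units 5 higher and 2 lower. The 10 most abundant genes held 7.23 percentage points more in fasted fish (exact permutation test, p = 0.0286).

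With 1 fish left out, 4344 to 4841 genes were called higher and 4460 to 4788 lower. Without overlap, 4916 to 5372 were higher and 4534 to 4874 lower, and 183 to 256 were higher and 469 to 662 lower by a gap over 1. Switch-like genes numbered 2 to 3 higher and 0 lower. Counts without overlap, with a gap or switch-like cannot fall when a fish is left out, so these ranges do not test stability. The share of the 50 most abundant genes differed by 3.04 to 6.25 percentage points, and the call was made only without refed replicate 1 (6.25, exact p = 0.0286). The effect of tfeb was 0.43 to 0.65, with an adjusted p up to 0.0755.

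A pairing of the fish by replicate number was not established, and with 4 numbers the check cannot exclude one. Deviations of fish with the same number correlated at 0.011 to 0.053, and 2 of 4 numbers matched best with themselves. With the number as a block, 4806 genes were called higher and 4700 lower. The other alternatives gave counts within 1.5 times those reported.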
